A study of Mus musculus with 12 samples.

Results

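Wnt receptors and secreted Wnt inhibitors were followed as a set of 10 genes in the pressure-loaded and unloaded left ventricle of the mouse. The set was fixed by symbol as Frzb, Sfrp1, Sfrp2, Sfrp5, Dkk3, Wif1, Lrp5, Lrp6, Axin2 and Fzd1. No cutoff on a measured value defined it, but it was chosen with earlier results of these data known. These are 10 of the 18193 genes with a probe set annotated to their symbol alone, and 20 probe sets carry their names. Where a gene had several probe sets the one with the brightest average on the 12 arrays stood for it, and 9 of the 10 were bright enough to test among 10435 genes (above a log2 value of 4 on at least 3 arrays).

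RNA came from the left ventricle of male C57BL/6 mice, 3 mice in each of 4 groups and 1 Affymetrix array per mouse. The AB mice had the aorta banded at 7 weeks of age, so that the left ventricle works against a higher pressure, and were killed 4 weeks later. The sAB mice were their shams and were killed at the same time. The DB3 mice were banded for 4 weeks, the band was taken off, and the heart was collected 3 days later. The sDB3 mice carry the label of a sham procedure with a later debanding and were collected at the same 3 days, so they differ from sAB in the second operation and in time. No group carries a transgene or a drug in the labels, and the ventricle was taken as a whole, so that its values pool myocytes with all other cells. In such samples fewer cells of a type and less RNA per cell cannot be told apart.

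Wnt proteins are secreted ligands that bind Frizzled receptors together with the co-receptors Lrp5 and Lrp6. In the beta-catenin branch of the pathway this binding stops a complex of Axin, Apc and Gsk3 from marking beta-catenin for destruction, and beta-catenin then works in the nucleus with TCF/LEF factors. Secreted Frizzled-related proteins (Frzb, Sfrp1, Sfrp2, Sfrp5) and Wif1 bind Wnts outside the cell, Dickkopf proteins bind the co-receptors, and Axin2 is both a brake on the pathway and one of its transcribed targets. In the adult heart the pathway is largely quiet and is known to be taken up again in injured and remodelling tissue, where fibroblasts make several of the secreted inhibitors.

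The values are log2 signals made by GCRMA, and differences are given in log2 units with their standard error (SE). A gene was called where limma's adjusted p lay below 0.05 over all genes tested. With 3 arrays per group the smallest p of an exact permutation test is 0.1, and the calls rest on a spread pooled over genes and groups. The sAB arrays stood apart before any mouse gene was considered. BioC, a bacterial transcript spiked into the hybridisation, had a log2 signal of 10.15 to 10.51 on the sAB arrays and of 8.28 to 8.60 on the other 9. Whatever separated these arrays cannot be told apart from the sham group, and AB was therefore also set against sDB3. RNA quality was read from the beta-actin controls, whose 3′ signal exceeded the 5′ signal by 1.02 to 1.13 in AB, less than in sAB (1.20 to 1.26) and sDB3 (1.20 to 1.25), and by 1.11 to 1.32 in DB3. Cardiomyocyte markers were high on all arrays, as the labelled tissue would have them. Their summed linear signal over 7 genes was 332335 to 350023 on AB and 346470 to 354831 on DB3, below both sAB (360699 to 365798) and sDB3 (370735 to 377138).

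Scaling moved the balance of calls over all genes, and each member is given below against this background. As deposited, the higher and lower calls were 1256 and 802 in AB against sAB, 1809 and 489 in AB against sDB3, 560 and 104 in DB3 against sDB3, 573 and 1288 in sDB3 against sAB, and 270 and 360 for the difference of the banding effects (AB minus sAB less DB3 minus sDB3). After quantile normalization they were 1104 and 1063, 919 and 727, 107 and 91, 712 and 731, and 341 and 228, in the same order. After centring each array on its median they were 1086 and 1075, 738 and 1320, 127 and 348, 1058 and 481, and 430 and 153. Centring shifted the median of all genes by -0.15 in AB against sDB3, by -0.13 in DB3 against sDB3 and by 0.11 in sDB3 against sAB.

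Calls among the members were few and mostly upward in the banded ventricle. In AB against sAB 2 of the 9 tested members, Frzb and Lrp5, were called higher and 0 lower, where 12% of all genes were called higher and 7.69% lower. In AB against sDB3, Frzb and Sfrp2 were called higher and 0 members lower, against 17.3% and 4.69% of all genes. In DB3 against AB, Frzb alone was called, lower, against 5.12% of genes called lower and 4.04% higher. In sDB3 against sAB, Lrp5 alone was called, higher, against 5.49% higher and 12.3% lower. In DB3 against sDB3 no member was called (1 had an unadjusted p under 0.05, and a per-gene analysis of variance also called 0), where 5.37% of genes were higher and 0.997% lower. For the difference of the banding effects, Lrp5 was called with a larger effect in AB, against 2.59% of genes with a larger and 3.45% with a smaller value. Quantile normalization and centring left the number of members called the same in each of these 6 comparisons.

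The median log2 difference of the 9 tested members was 0.60 in AB against sAB, where the median of all genes was 0.01. It was 0.26 against 0.11 in AB against sDB3, 0.24 against 0.09 in DB3 against sDB3, -0.23 against -0.02 in DB3 against AB and -0.11 against -0.09 in sDB3 against sAB. AB against sAB and AB against sDB3 share the AB arrays, and the comparisons with sDB3 share its arrays, so that their values are set side by side only.

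**Figure D1:**
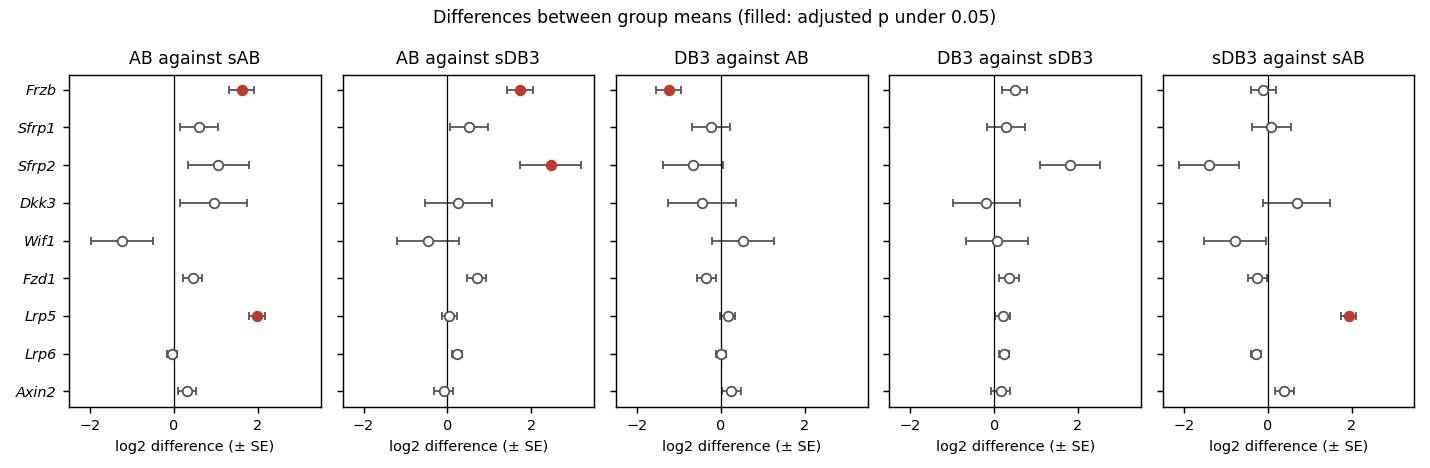
Log2 differences of the 9 tested members (points) with 1 SE to each side (bars) in each of the comparisons named above the panels, filled where limma's adjusted p lay below 0.05. Frzb is called in AB against sAB, in AB against sDB3 and, downward, in DB3 against AB, and Lrp5 in the comparisons of AB and of sDB3 with sAB.

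Frzb and Sfrp2 were the members that rose in AB against the sham with the common BioC level, and their promoters are shown for that reason. RefSeq (GRCm38.p6) held a promoter window, 250 bases before to 50 after the annotated start, for 6 of the 10 members. The Frzb window lies at chr2:80447347-80447646 on the minus strand and the Sfrp2 window at chr3:83766071-83766370 on the plus strand. Both are written 5′ to 3′ on the strand of the gene, and capitals mark a match to a TCF/LEF motif.
Frzb: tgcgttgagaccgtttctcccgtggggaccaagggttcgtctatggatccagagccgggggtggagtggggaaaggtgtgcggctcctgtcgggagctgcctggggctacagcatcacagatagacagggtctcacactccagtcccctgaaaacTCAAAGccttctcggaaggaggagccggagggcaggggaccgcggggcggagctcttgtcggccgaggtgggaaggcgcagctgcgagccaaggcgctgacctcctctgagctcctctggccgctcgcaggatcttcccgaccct
Sfrp2: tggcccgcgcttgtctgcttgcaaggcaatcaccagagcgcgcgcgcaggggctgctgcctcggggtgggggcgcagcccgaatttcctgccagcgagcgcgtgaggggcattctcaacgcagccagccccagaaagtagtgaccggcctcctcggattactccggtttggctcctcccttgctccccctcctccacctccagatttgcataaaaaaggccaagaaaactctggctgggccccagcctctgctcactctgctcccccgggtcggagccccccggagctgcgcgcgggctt
Frzb had 1 match to the TCF/LEF letters CTTTGA, on the reverse strand 95 bases before the start, and Sfrp2 had 0. Of 32851 mouse promoter windows of the same length, 16.0% hold these letters on either strand. Among the other members with a window, Fzd1 had 1 match 242 bases before its start, and Axin2, Wif1 and Sfrp5 had 0. The letters GGAATG of the TEAD motif (14.7% of windows) and TGANTCA of the AP-1 motif (7.8% of windows) occurred in none of the 6 windows, and no matches overlapped. The G and C content was 64.7% for Frzb and 66.0% for Sfrp2, where the median of all windows was 52.7%. A match of letters is a description and not a binding site, and the build of the array's annotation was not given in the sources used here.

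Frzb, also known as Sfrp3, encodes a secreted Frizzled-related protein that binds Wnts and is best known from cartilage. It was the only member called in AB against both shams. On the AB arrays its log2 signal was 8.12, 8.50 and 9.40. The sAB arrays stood at 7.13, 7.11 and 6.93 and the sDB3 arrays at 6.89, 7.27 and 6.67, so that every AB array lay above every array of both shams. On the DB3 arrays it was 7.04, 7.84 and 7.41, below every AB array and partly within the range of sDB3.

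Frzb rose 3.07-fold in AB against sAB (1.62 ± 0.30 log2 units, SE, 3 arrays in each group, adjusted p = 0.00442 in limma). Against sDB3 the rise was 3.32-fold (1.73 ± 0.30, adjusted p = 0.00376). Both calls were kept in all 12 fits that left out 1 array, with adjusted p-values up to 0.0158 and 0.0136. In DB3 it fell by 1.24 ± 0.30 against AB (2.37-fold, adjusted p = 0.0282). That call was kept in 8 of the 12 fits and was lost without AB replicate 2 (adjusted p = 0.0673), AB replicate 3 (0.0751, difference -0.88), DB3 replicate 1 (0.0963) or DB3 replicate 3 (0.0712), and in a fit without the sAB arrays (0.0579). Against sDB3, the DB3 mean was 0.49 ± 0.30 higher (adjusted p = 0.332), and the 2 groups overlapped. The difference of the banding effects was 1.13 ± 0.42 (adjusted p = 0.136). The AB arrays, high in Frzb, had a lower beta-actin difference (1.02 to 1.13) and a lower cardiomyocyte sum (332335 to 350023) than both shams. The DB3 arrays, lower in Frzb than AB, overlapped AB in both (1.11 to 1.32 and 346470 to 354831). The part of either in the Frzb values was not tested.

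The second Frzb probe set was dimmer and had the same order of groups. Its log2 signal was 5.71, 6.21 and 6.93 on the AB arrays, against 3.94, 4.69 and 4.64 on sAB, 4.40, 4.69 and 3.73 on sDB3 and 4.52, 5.36 and 5.21 on DB3. Tested beside all 17817 probe sets, it was called in AB against sAB (1.86, adjusted p = 0.00502, where 12.2% of probe sets were called higher) and in AB against sDB3 (2.01, adjusted p = 0.00483, where 14.5% were called higher). In DB3 against AB it differed by -1.25 and missed the threshold (adjusted p = 0.0559, where 4.36% were called lower).

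**Figure D2:**
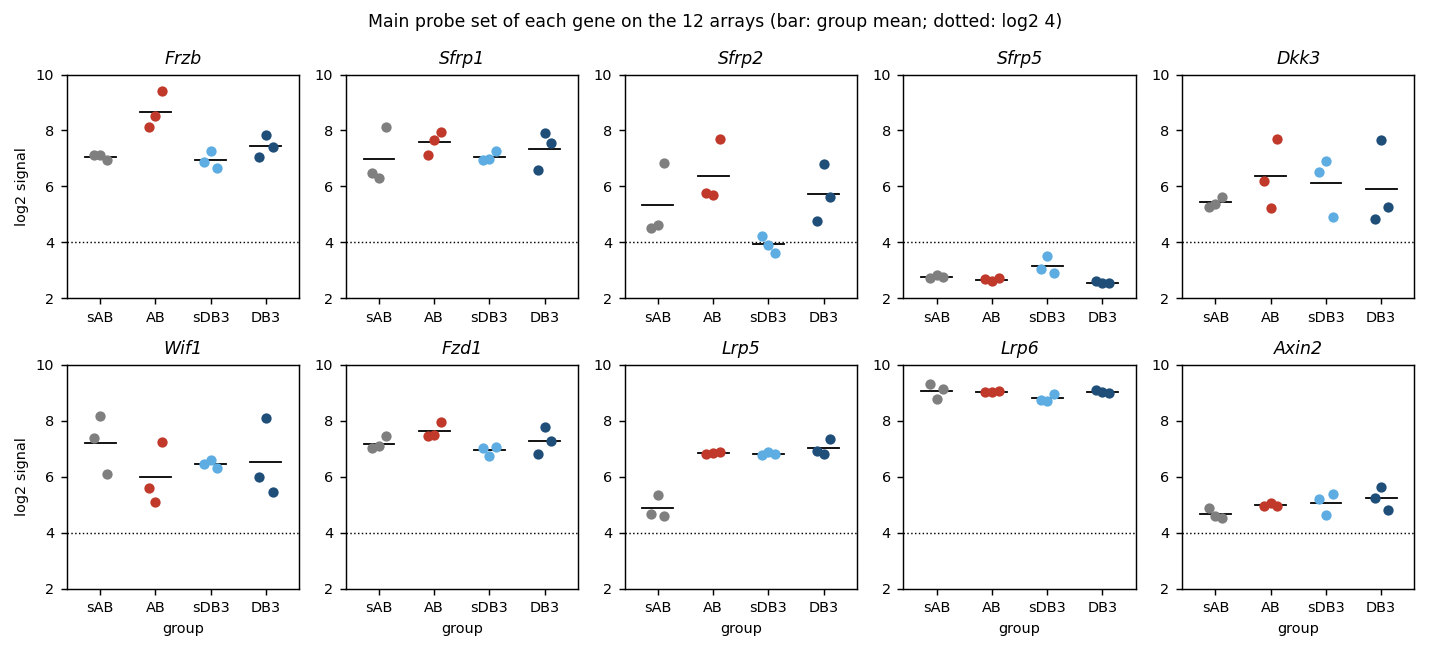
Log2 signal of each member on each of the 12 arrays (points) with the group mean (bar), by group, and with a dotted line at the log2 value of 4 below which a probe set counted as dim. The 3 AB points of Frzb, between 8.12 and 9.40, lie above all others, the 3 sAB points of Lrp5, between 4.60 and 5.35, lie below all others, and Sfrp5 stays below the line.

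Sfrp2, a secreted Frizzled-related protein made mainly by fibroblasts and other mesenchymal cells, was lowest in sDB3. Its only probe set read 4.24, 3.92 and 3.63 on the sDB3 arrays. The AB arrays stood at 5.75, 5.71 and 7.70, the DB3 arrays at 4.76, 6.80 and 5.62 and the sAB arrays at 4.53, 4.62 and 6.84. All 9 of these lay above all 3 sDB3 arrays, while sAB, AB and DB3 overlapped one another. Over all genes such splits were counted for sAB alone, so no share can be set beside this one. The same holds for the other splits between groups given for Frzb, Fzd1, Lrp6 and Axin2. As deposited, the median difference of all genes was 0.11 in AB against sDB3, 0.09 in DB3 against sDB3 and -0.09 in sDB3 against sAB.

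Sfrp2 rose 5.49-fold in AB against sDB3 (2.46 ± 0.72, adjusted p = 0.0346). The sDB3 arrays are near the dim limit, where the GCRMA floor compresses a fold. The call was kept in 7 of 12 fits without 1 array and was lost without AB replicate 2 (2.80, adjusted p = 0.0529), AB replicate 3 (1.80, 0.129) or sDB3 replicate 1, 2 or 3 (0.0628, 0.0833 and 0.0807). Without the sAB arrays it was kept (adjusted p = 0.0274). In DB3 against sDB3 the difference was 1.80 ± 0.72, or 3.48-fold, with no overlap of the groups and an adjusted p of 0.15. Against sAB, AB differed by 1.06 ± 0.72 (adjusted p = 0.334) and sDB3 by -1.40 ± 0.72 (adjusted p = 0.194, groups not overlapping). Within sAB 1 array stood alone at 6.84, above the others at 4.53 and 4.62.

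Sfrp1, another secreted Frizzled-related protein, passed no test. Its log2 signal was 7.14, 7.66 and 7.93 on AB, 6.94, 6.98 and 7.28 on sDB3 and 6.59, 7.91 and 7.54 on DB3. On sAB it was 6.47, 6.31 and 8.14, of which the last exceeds every other array of the series. AB differed from sAB by 0.60 ± 0.46 (adjusted p = 0.393) and from sDB3 by 0.51 ± 0.46 (adjusted p = 0.457). Without sAB replicate 3 the difference of AB from sAB was 1.19 and passed (adjusted p = 0.0426). That array also had the highest Sfrp2 of its group and the highest summed signal of the 6 macrophage markers in the series (6951, where all arrays ranged from 3226 upward). Its summed signal of the 8 fibroblast markers named below was also the highest of its group (49965, against 40797 and 42223). The part of either set of markers in the Sfrp1 value was not tested. Sfrp1 has 5 probe sets, and one of them stayed between 5.70 and 5.87 on all arrays. The remaining further ones were higher in AB against sAB by 0.79, 0.92 and 0.35 (limma adjusted p over all probe sets 0.0614, 0.107 and 0.572). In AB against sDB3 they were higher by 0.48, 0.68 and 0.89 (0.232, 0.221 and 0.135), and none was called.

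Sfrp5, an inhibitor of Wnt5a known from adipose tissue, was not measurable above background here. Its brighter probe set read at most 3.53 on any array and never passed a log2 value of 4, and the other stood at the floor of 2.23 throughout. It was left out of the tests.

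Dkk3, a Dickkopf family protein that does not block the co-receptors in the manner of Dkk1, had a wide spread within AB, sDB3 and DB3 (SD 1.25, 1.07 and 1.52). It read 5.28, 5.36 and 5.64 on the sAB arrays, 6.18, 5.23 and 7.71 on AB, 6.52, 6.92 and 4.90 on sDB3 and 4.84, 7.66 and 5.27 on DB3. Its SE of a group difference, 0.80, was larger than that of 99.8% of all genes. AB differed from sAB by 0.95 ± 0.80 (adjusted p = 0.436), from sDB3 by 0.26 ± 0.80 (0.839), and DB3 from sDB3 by -0.19 (0.903). The second Dkk3 probe set gave 7.83 on the same AB array, 7.85 on the same DB3 array and 6.30 and 6.70 on the same sDB3 arrays, against 5.45 on AB replicate 2 and 4.79 or less on DB3 replicates 1 and 3 and sDB3 replicate 3.

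The arrays with high Dkk3 were those with high atrial markers. The labels say that the atria were cut off, and the summed linear signal of Sln, Myl7, Myl4 and Bmp10 nevertheless ranged from 75 to 15845 over the 12 arrays. It was 8531 on AB replicate 3, 14286 on DB3 replicate 2 and 10553 and 15845 on sDB3 replicates 1 and 2, and 6168 or less on the other 8. Bmp10 never passed a log2 value of 4, and none of the other 3 was called in any comparison. Dkk3 correlated with this sum at r = 0.72 over 12 arrays (permutation p = 0.00763) and at Spearman's rho = 0.63 (permutation p = 0.0325). Adjusted over the 81 relations of 9 members with 9 marker lists the p-values were 0.206 and 0.329, so neither passed. Without the 2 arrays farthest from the median sum r was 0.80, among the 9 arrays outside sAB 0.70, and for deviations from the group means 0.73. With the summed adipocyte and fibroblast markers r was 0.54 and 0.37 over the 12 arrays (permutation p = 0.0682 and 0.243, adjusted p = 0.46 and 0.616). For deviations from the group means it was 0.71 and 0.63, so a relation within groups was not particular to the atrial markers. The part of atrial or other tissue in the Dkk3 values was not tested beyond this.

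Sfrp2 followed the summed fibroblast markers in the same way. The sum of 8 markers (Col1a1, Col1a2, Pdgfra, Dcn, Lum, Tcf21, Dpt and Gsn) was 40797, 42223 and 49965 on sAB, 43137, 43106 and 49091 on AB, 42243, 41162 and 40307 on sDB3 and 46953, 52745 and 50014 on DB3. Its correlation with Sfrp2 was r = 0.81 (permutation p = 0.00197, adjusted p = 0.16) and rho = 0.82 (permutation p = 0.00182, adjusted p = 0.0613). It was 0.84 without the 2 farthest arrays, 0.77 among the 9 arrays outside sAB and 0.98 for deviations from the group means. For Sfrp1 and Fzd1, r with the same sum was 0.67 and 0.63 (permutation p = 0.0198 and 0.0308, adjusted p = 0.267 and 0.312). Of the 8 fibroblast markers, Col1a1 and Pdgfra were called higher in AB against sAB, and Dcn and Gsn in DB3 against sDB3. In AB against sDB3, 0 were called. These calls depended on the scaling. After centring Col1a1 kept its call, while Pdgfra, Dcn and Gsn lost theirs, and after quantile normalization only Dcn lost its call. Centring also left Gsn called lower in AB against sDB3. The part of fibroblasts in the Sfrp2 values was not tested.

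Markers of other cells moved in AB against sDB3, the comparison in which Frzb and Sfrp2 were called. Of 6 endothelial markers 4 were called higher (Cdh5, Tie1, Tek and Emcn, by 0.35 to 0.53), and after centring Tie1 alone was. Of 7 smooth muscle and pericyte markers 3 were called higher (Pdgfrb by 0.56, Kcnj8 by 0.47 and Cspg4 by 0.85), and after centring 2 of them. Of 7 cardiomyocyte markers 2 were called lower, Tnni3 (-0.18) and Ryr2 (-0.31), and after centring all 7. In AB against sAB 1 endothelial and 2 smooth muscle and pericyte markers were called higher and 0 cardiomyocyte markers.

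The cardiomyocyte sum ran opposite to Frzb, Sfrp2 and Fzd1 over the 12 arrays. With Frzb r was -0.72 (permutation p = 0.00677, adjusted p = 0.206) and rho -0.74 (p = 0.00763, adjusted p = 0.155). With Sfrp2 r was -0.68 (permutation p = 0.0151, adjusted p = 0.245) and rho -0.81 (p = 0.00211, adjusted p = 0.0613). With Fzd1 r was -0.69 (permutation p = 0.0122, adjusted p = 0.245) and rho -0.81 (p = 0.00227, adjusted p = 0.0613). Without the 2 farthest arrays r was -0.74, -0.77 and -0.67, and among the 9 arrays outside sAB -0.71, -0.76 and -0.70. For deviations from the group means it was -0.02, -0.10 and -0.30, so that within groups these relations were weak. The part of the cell makeup in the 3 members was not tested.

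**Figure D3:**
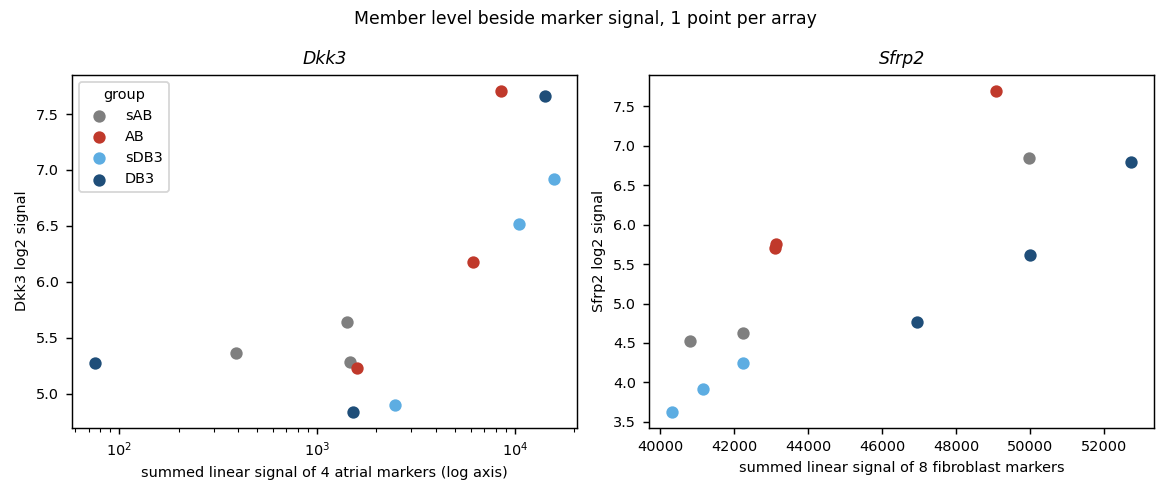
Left, the log2 signal of Dkk3 on each of the 12 arrays against the summed linear signal of 4 atrial markers on a log axis, and right, the log2 signal of Sfrp2 against the summed linear signal of 8 fibroblast markers on a linear axis, with points marked by group. Dkk3 is highest on the 4 arrays with an atrial sum of 8531 or more, and Sfrp2 is lowest on the 3 sDB3 arrays, whose fibroblast sums lie between 40307 and 42243.

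Wif1, a secreted protein that binds Wnts directly, was the only tested secreted inhibitor whose mean was lower in AB than in both shams, and it passed no test. It read 5.59, 5.10 and 7.23 on AB, 7.38, 8.18 and 6.08 on sAB, 6.44, 6.59 and 6.30 on sDB3 and 5.99, 8.10 and 5.44 on DB3. The groups overlapped throughout, and only sDB3 was tight (SD 0.14, against 1.06 to 1.40 in the other groups). AB differed from sAB by -1.24 ± 0.74 (adjusted p = 0.268) and from sDB3 by -0.47 ± 0.74 (0.681). DB3 differed from sDB3 by 0.06 (0.968). Its SE of a difference was larger than that of 99.7% of all genes.

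Fzd1, a Frizzled receptor for Wnts, was higher on each AB array than on each array of either sham, without passing the threshold. It read 7.46, 7.49 and 7.95 on AB, 7.01, 7.09 and 7.44 on sAB, 7.04, 6.72 and 7.05 on sDB3 and 6.80, 7.79 and 7.27 on DB3. AB differed from sDB3 by 0.70 ± 0.23 (1.62-fold, adjusted p = 0.0527) and from sAB by 0.45 ± 0.23 (adjusted p = 0.194). The first of these passed with the mean of both probe sets (0.64, adjusted p = 0.0248) and with a fit of only the groups compared (0.0345). It also passed with a dim filter at a log2 value of 6 (0.0443) and with trend and robust moderation (0.0412). Of the 12 fits without 1 array it passed in only 2, without DB3 replicate 1 or 2 (0.026 and 0.0252), with adjusted p up to 0.183 in the rest. Its adjusted p was 0.104 after quantile normalization and 0.112 after centring. The dimmer probe set stood at 4.10 to 4.22 on 10 of the 12 arrays and at 5.02 and 5.15 on AB replicates 2 and 3. Over all probe sets it was called in AB against sAB (0.62, adjusted p = 0.0426) and missed the threshold against sDB3 (0.59, adjusted p = 0.0532).

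AB replicate 3 and DB3 replicate 2 often held the highest value of their group. AB replicate 3 had the highest value of its group for 8 of the 9 tested members, as it did for 36.7% of all genes, and DB3 replicate 2 for 7 of 9, as for 30.6% of all genes. For Lrp5 and Lrp6 the margin in AB was small (6.89 against 6.86 and 9.05 against 9.04). Both had high sums of atrial markers, and AB replicate 3 had the highest fibroblast sum of its group as DB3 replicate 2 had of all arrays. The SE of a difference was above the median of all genes, 0.11, for each of the 9 members, from 0.12 for Lrp6 to 0.80 for Dkk3.

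Lrp5, the co-receptor that binds Wnt together with a Frizzled, split the arrays into sAB and the rest. It read 4.68, 5.35 and 4.60 on the sAB arrays and between 6.76 and 7.33 on the other 9, with a gap of 1.41 between the highest sAB array and the lowest of the others. On AB it was 6.82, 6.86 and 6.89, on sDB3 6.76, 6.88 and 6.81 and on DB3 6.91, 6.82 and 7.33. These 3 groups overlapped.

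By the test Lrp5 rose 3.94-fold in AB against sAB (1.98 ± 0.18, adjusted p = 0.000101) and 3.82-fold in sDB3 against sAB (1.93 ± 0.18, adjusted p = 0.000263). AB against sDB3 gave 0.04 ± 0.18 (adjusted p = 0.893), which is -0.11 after centring and -0.12 after quantile normalization. DB3 against sDB3 gave 0.20 (adjusted p = 0.52). The difference of the banding effects was 1.77 ± 0.26 (adjusted p = 0.00646). The 3 calls were kept in all 12 fits without 1 array. The values split the arrays exactly as BioC does, and the technical difference of the sAB arrays and the sham operation cannot be told apart for this gene. Lrp5 was the only one of the 9 members with all 3 sAB arrays below the other 9 and 0 lay above, where 6.47% of all genes lay below and 6.56% above, and it stayed the only one after quantile normalization and after centring.

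Lrp6, the sister co-receptor, gave different answers from its probe sets. Its brighter probe set read 9.31, 8.78 and 9.13 on sAB, 9.04, 9.01 and 9.05 on AB, 8.74, 8.72 and 8.95 on sDB3 and 9.10, 9.03 and 8.99 on DB3. It passed no test, with AB at -0.04 ± 0.12 against sAB (adjusted p = 0.84) and at 0.23 ± 0.12 against sDB3 (adjusted p = 0.184), and both AB and DB3 lay above all sDB3 arrays. Without sAB replicate 2, sDB3 was lower than sAB by the test (-0.42, adjusted p = 0.0219).

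The dimmer Lrp6 probe set split the arrays as Lrp5 did. It read 5.68, 5.87 and 6.02 on the sAB arrays and between 6.44 and 6.85 on the other 9, a gap of 0.42. Over all probe sets it was called higher in AB against sAB (0.65, adjusted p = 0.00293), in sDB3 against sAB (0.80, adjusted p = 0.00194, where 6.29% of probe sets were called higher) and for the difference of the banding effects (0.67, adjusted p = 0.0373, where 2.83% were). In AB against sDB3 it gave -0.14 (adjusted p = 0.395). With the mean of both probe sets, the Lrp6 difference turned positive in both comparisons with sAB (0.31 and 0.26).

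**Figure D4:**
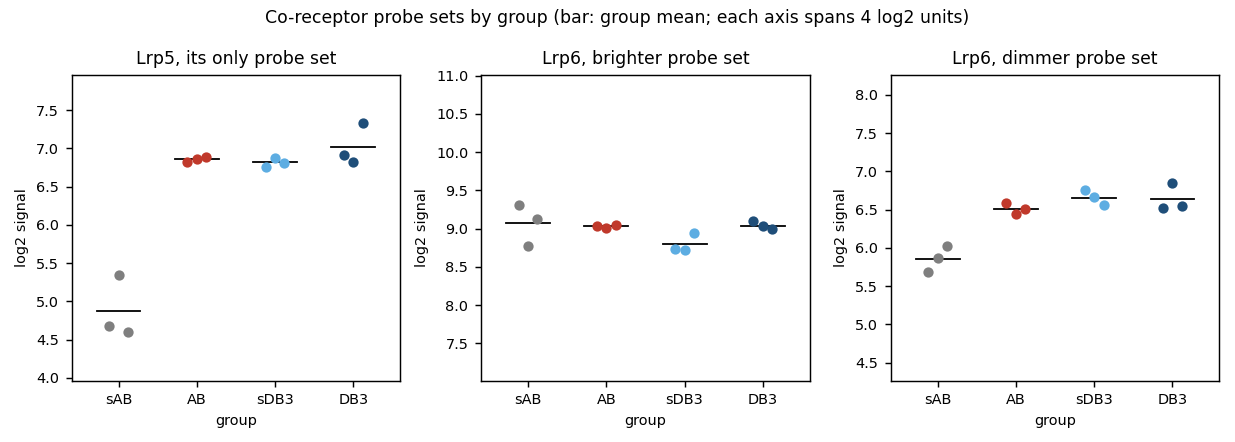
Log2 signal of Lrp5 and of both Lrp6 probe sets on each of the 12 arrays (points) with the group mean (bar), by group, on axes that span 4 log2 units each. Lrp5 and the dimmer Lrp6 probe set are lower on the 3 sAB arrays than on the other 9 (gaps of 1.41 and 0.42), and the sAB points of the brighter Lrp6 probe set, from 8.78 to 9.31, lie among the others.

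Axin2, the feedback inhibitor that is widely read as a gauge of beta-catenin signalling, did not pass in any comparison. It read 4.89, 4.60 and 4.53 on sAB, 4.96, 5.04 and 4.94 on AB, 5.21, 4.62 and 5.39 on sDB3 and 5.25, 5.64 and 4.79 on DB3. AB lay just above sAB without overlap (0.31 ± 0.22, adjusted p = 0.371) and within the range of sDB3 (-0.09 ± 0.22, adjusted p = 0.79). DB3 differed from sDB3 by 0.15 (adjusted p = 0.699) and from AB by 0.25 (adjusted p = 0.538). The probe set is close to the dim limit and the other Axin2 probe set never passed it, so that small changes could not have been seen.

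The rest of the pathway was read from 5 lists that hold no member of the set. Of 19 Wnt ligands on the array only 5 were bright enough to test, of 20 other receptors and co-receptors 13 and of 18 other Wnt modulators 4. Of 26 intracellular genes of beta-catenin signalling 22 were, and of 11 target and feedback genes 6. Not all of the modulators are secreted (Apcdd1 is a membrane inhibitor). Most Wnt ligands were thus too dim to test in this tissue, where a ligand made by few cells can be missed.

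In AB against sAB, 0 of 5 ligands were called (0 at an unadjusted p under 0.05, 0 by analysis of variance), with a median of -0.07. Over all genes 12% were called higher and 7.69% lower. Of the 13 receptors 2 were called higher and 2 lower, among them Kremen1, a Dickkopf receptor (0.65 ± 0.09, adjusted p = 0.00121), and Lgr6, a receptor for R-spondins (-0.60 ± 0.15, adjusted p = 0.0207). Of the 4 modulators 0 were called (1 at an unadjusted p under 0.05, 0 by analysis of variance). Of the 22 intracellular genes 3 were called higher and 0 lower, led by Gsk3b, the kinase of the destruction complex (0.70 ± 0.08, adjusted p = 0.000403). Gsk3b was also called for the difference of the banding effects (0.58, adjusted p = 0.0229), but not with the mean of its probe sets (0.16, adjusted p = 0.228) or without AB replicate 2 (0.0601), AB replicate 3 (0.0624) or sDB3 replicate 1 (0.0531). For that difference Kremen1 was also called higher, and the corepressor Tle4 and Porcn, which attaches lipid to Wnts, were called lower. These calls were kept in 3, 4 and 2 of the 12 fits without 1 array. Of all genes 2.59% were called higher and 3.45% lower. The lowest group of Gsk3b was sAB, at 9.56 to 9.73, against 10.03 to 10.46 on the other 9 arrays, so it too divides the arrays as BioC does. Kremen1 did the same, at 8.62 to 8.76 on sAB against 8.85 to 9.42 on the others. Of all genes 6.47% had the sAB arrays below the other 9. Kremen1, Gsk3b and Lgr6 were called against sDB3 as well. Kremen1 was higher by 0.42 (adjusted p = 0.0116, and 0.0555 after centring) and kept the call in all 12 fits without 1 array, with its AB arrays at 9.22 to 9.42 above sDB3 at 8.85 to 8.99. Gsk3b was higher by 0.26 (adjusted p = 0.0468), a call lost after centring (0.36), after quantile normalization (0.108) and without most single arrays (up to 0.163). Lgr6 was lower (-0.55, adjusted p = 0.029, and 0.0121 after centring), a call lost without AB replicate 2 (0.103), AB replicate 3 (0.0852), sDB3 replicate 2 (0.0983) or sDB3 replicate 3 (0.0762). Lgr6 lost its call without sAB replicate 1 or 2 or AB replicate 2 or 3, with adjusted p-values up to 0.0811.

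Of the 6 target and feedback genes 2 were called higher in AB against sAB and 0 lower, with a median of 0.19. These were Myc, a growth-promoting transcription factor (1.21 ± 0.15, adjusted p = 0.00054), and Ccn5, a matricellular protein also known as Wisp2 (1.38 ± 0.40, adjusted p = 0.0335). Both were called against sDB3 too, Myc by 1.33 ± 0.15 (adjusted p = 0.000522) and Ccn5 by 1.69 ± 0.40 (adjusted p = 0.0146). Myc kept both calls in all 12 fits without 1 array. Ccn5 lost the first in 4 of them (without AB replicate 2 or 3 or sAB replicate 1 or 2, adjusted p up to 0.126) and the second in 2 (without AB replicate 2 or 3, up to 0.0584).

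In AB against sDB3 the other lists held more upward calls as deposited, and these depended on the scaling. Called higher and lower were 2 and 0 of the ligands, 4 and 1 of the receptors, 1 and 0 of the modulators, 6 and 0 of the intracellular genes and 2 and 0 of the targets, where 17.3% of all genes were called higher and 4.69% lower. After centring the counts were 0 and 1, 0 and 2, 0 and 0, 1 and 3, and 2 and 1. Ctnnbip1, which keeps beta-catenin from TCF factors, was called with every scaling and in all 12 fits without 1 array (0.70 ± 0.10, adjusted p = 0.00136). Wnt5b (0.72 ± 0.20, adjusted p = 0.0274), Wnt9a (0.76 ± 0.24, 0.0463), the Wnt receptors Fzd2 (0.78 ± 0.22, 0.029) and Ror1 (0.58 ± 0.15, 0.0237), the membrane inhibitor Apcdd1 (0.63 ± 0.16, 0.0217) and the corepressor Tle4 (0.37 ± 0.08, 0.00927) lost their calls after centring.

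After debanding, the calls among the target genes were, as deposited, upward against the sham and downward against AB, with Myc alone called in both. Over all genes 5.37% were called higher and 0.997% lower in DB3 against sDB3, and 4.04% higher and 5.12% lower in DB3 against AB. In DB3 against sDB3 Ccn5 (1.62 ± 0.40, adjusted p = 0.0422) and Myc (0.66 ± 0.15, adjusted p = 0.0334) were called higher, 2 of 6 targets, and neither was after centring or quantile normalization. After centring 0 targets were called higher and 1 lower, and after quantile normalization 0 were called either way. Ccn5 kept the call in 3 and Myc in 6 of the 12 fits without 1 array (adjusted p up to 0.104 and 0.0906), and each lost it without any single DB3 or sDB3 array. Of the 5 ligands, 13 receptors and 4 modulators 0 were called, with 0, 2 and 2 at an unadjusted p under 0.05 and 0 by analysis of variance, and of the intracellular genes 1 was higher, Tle4 (0.47, adjusted p = 0.0161), which also lost its call after quantile normalization. In DB3 against AB, 2 of 6 targets were called lower and 0 higher. Ccn5 differed there by -0.07 (adjusted p = 0.942). Ccnd1, cyclin D1, fell by 0.82 (-0.82 ± 0.13, adjusted p = 0.00512) and Myc by 0.67 (-0.67, adjusted p = 0.0203), Ccnd1 in all 12 fits and Myc in 9 (lost without AB replicate 2 or 3 or DB3 replicate 2, up to 0.0798). Of the 13 receptors Lgr6 was called higher (0.56, adjusted p = 0.0475) and Ror1 lower (-0.56, adjusted p = 0.0459). Of the 4 modulators Porcn, which attaches lipid to Wnts, was higher (0.59, adjusted p = 0.0443) near the dim limit, and of the intracellular genes Ctnnbip1 was lower (-0.43, adjusted p = 0.0224). Ctnnbip1 kept its call in 8 of 12 fits without 1 array (lost without AB replicate 2 or 3 or DB3 replicate 1 or 3), Lgr6 in 4, Porcn in 3 and Ror1 in 2, with adjusted p-values up to 0.165. Ligands had 0 calls (0 at an unadjusted p under 0.05, 0 by analysis of variance).

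Between the shams, in sDB3 against sAB, 1 receptor was higher and 3 lower and 3 intracellular genes were higher and 5 lower, while 0 ligands, modulators and targets were called (1, 1 and 0 at an unadjusted p under 0.05, 0 by analysis of variance). Over all genes 5.49% were called higher and 12.3% lower. Fzd5, a Frizzled receptor, was lower by the test (-0.97 ± 0.21, adjusted p = 0.0121) and Gsk3a, the sister kinase of Gsk3b, higher (0.46, adjusted p = 0.0067). With only the groups compared neither passed (0.0663 and 0.0532). Both split the arrays as BioC does, with Fzd5 at 6.72 to 6.83 on sAB and at most 6.42 on the other 9 and Gsk3a at 8.70 to 8.96 on sAB and at least 9.05 on the others. Of all genes 6.56% had the sAB arrays above the other 9 and 6.47% below. After centring the intracellular counts were 4 higher and 1 lower.

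**Figure D5:**
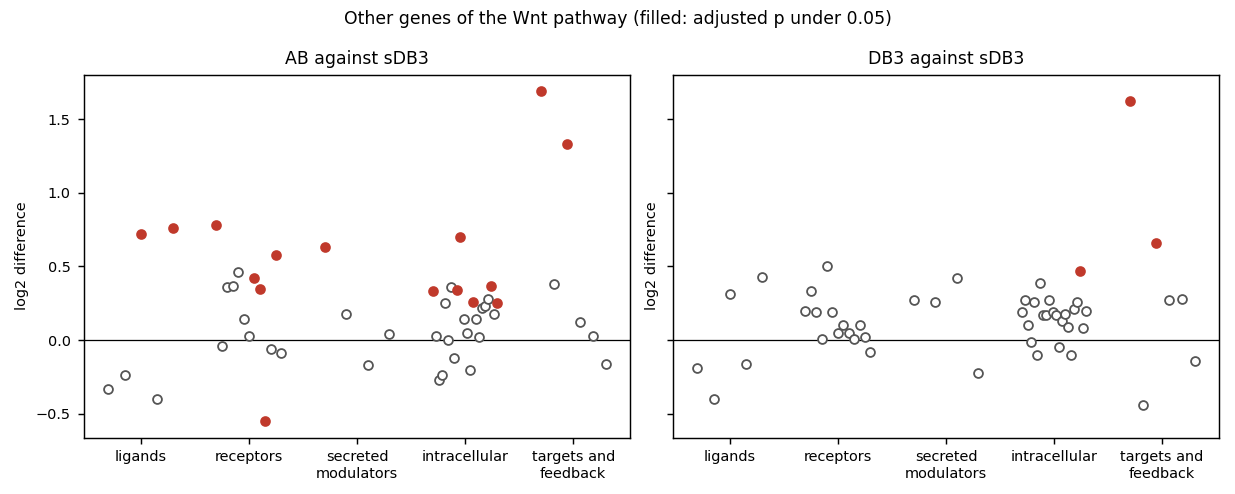
Log2 differences of the tested genes of the 5 pathway lists in AB against sDB3 and in DB3 against sDB3 (1 point per gene, filled where limma's adjusted p lay below 0.05). Of the filled points 15 lie above 0 and 1 below in AB against sDB3, led by Ccn5 at 1.69 and Myc at 1.33. These values are as deposited, where the median of all genes is 0.11.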

How the data were processed

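Deposited values were log2 signals per probe set for 12 arrays, made by the authors with GCRMA, per the submitters' processing notes, from 3 µg of total RNA per mouse. Not given in the sources used here are its settings and whether 1 run covered all arrays. The lowest value, 2.23, was shared by 29.0% to 31.5% of an array's probe sets, and folds near it are compressed. Replicate numbers follow accession order and pair nothing.

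Of 45101 probe sets 64 were controls, 34945 had 1 symbol, 932 several and 9160 none. Only those with 1 symbol were used, of which 34741 were found in RefSeq and given its current symbol. Probe sets above a log2 value of 4 on at least 3 of 12 arrays (17817) were kept, and the one with the highest mean over the 12 arrays stood for a gene (10435 genes). Group differences come from limma 3.58.1 (lmFit, eBayes) under R 4.3.3, in 1 model of 4 groups (8 residual and 2.68 prior degrees of freedom), two-sided, with Benjamini-Hochberg adjustment over all genes and a threshold of 0.05. P-values set a difference against the spread between mice within the groups, moderated over genes, and the number of mice limits the precision. In comparisons with sAB the difference also holds whatever separated the sAB arrays. The script was tested on simulated data. Marker sums are sums of linear signals over the genes of a list. Their correlations with members were tested with 100000 resamples.

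The members, lists and tests were chosen with earlier results of these data known. Named are all members and, per pathway list and comparison, at most the 2 called genes with the largest difference. Alternatives were a dim filter at log2 6 or none, averaging the probe sets of a gene, each probe set alone, quantile normalization, median centring, a per-gene analysis of variance, trend and robust moderation, fits of only the groups compared and leaving out each array. A fit without the sAB arrays, the marker correlations, the marker calls under other scalings and the values of Gsk3b, Kremen1 and Lgr6 in AB against sDB3 were added after seeing the data. Promoter windows are RefSeq's (GRCm38.p6).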

Additional observations from a re-analysis of the deposited data

Results flagged for a closer look

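For Lrp5, AB minus sAB exceeded DB3 minus sDB3 by 1.77 ± 0.26 log2 units in the test of the difference itself (limma adjusted p = 0.00646, n = 3 per group). AB against sDB3 gave 0.04 (adjusted p = 0.893) and sDB3 against sAB 1.93 (adjusted p = 0.000263). All 3 sAB arrays lay below the other 9 for this gene, as they lay above them for the spiked control BioC. Whatever separated these arrays and the sham group cannot be told apart.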

How the results depend on the processing

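Of the values of single members 1120 kept their side of the threshold, 15 lost and 9 gained a call, and 2 reversed with a call. Differences that were not called could change sign within the 1120. For Dkk3 in AB against sDB3 the difference was 0.26, and it ranged from -0.40 to 0.83 over the fits without 1 array. The reversals were those of Lrp6 with the mean of its probe sets, at 0.31 in AB against sAB (adjusted p = 0.0177) and 0.26 in sDB3 against sAB (0.0389), since its 2 probe sets differ. Among pathway genes Csnk1d turned to 0.11 in sDB3 against sAB with the mean of its probe sets (adjusted p = 0.459). With that mean 4 members were called in AB against sAB and 2 in sDB3 against sAB. In DB3 against AB the number of members called was 0 with no dim filter, in the analysis of variance, with only the groups compared and without the sAB arrays. In AB against sDB3 it was 1 with no dim filter and in the analysis of variance. Over fits without 1 array, members called ranged from 1 to 2 in sDB3 against sAB, 0 to 1 in DB3 against AB and 1 to 3 in AB against sDB3. Over all genes, calls in AB against sAB rose from 2058 to 3391 with every probe set tested. In DB3 against sDB3 they went from 664 to 323 with no dim filter, 198 after quantile normalization, 427 in the analysis of variance, 400 without the sAB arrays and 0 with only the groups compared. The difference of the banding effects had 630 calls, 338 with no dim filter and 976 with every probe set. In sDB3 against sAB 1861 became 2987 with every probe set and 571 with only the groups compared, and in DB3 against AB 956 became 629 with only the groups compared. Without 1 array, genes called ranged from 1139 to 2119 in AB against sAB, 170 to 535 in DB3 against sDB3, 152 to 567 for the difference, 967 to 1945 in sDB3 against sAB, 365 to 1031 in DB3 against AB and 1124 to 2354 in AB against sDB3. The cause of these changes was not tested beyond what each setting alters by construction. No paired analysis was possible because the labels give the groups no shared replicate numbers.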
